A study of Mus musculus with 6 samples.

Results

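To describe 5-hydroxymethylcytosine (5hmC) in the emptiest parts of the mapped genome, autosomal 5hmC regions with no other listed region nearby were examined in mice that lacked Tet1 (knockout, KO) and in wild-type mice (WT). A region was called isolated when it lay on chromosomes 1 to 19 and the gap to the region before it and the gap to the region after it were both at least 50000 bp. The first and last region of each chromosome, 38 in all, were left out. The rule used positions only and no read count. It found 2665 isolated regions, which were 1.41% of 189495 autosomal regions and part of a list of 192196 regions in all. The count table held 4 5hmC libraries, namely 2 from Tet1 KO and 2 from Tet1 WT, and the labels gave no other treatment, sex or age. The labels name brain as the material, whereas the study's methods describe astrocytes, the star-shaped glia, cultured from the cortex and hippocampus of newborn mice. The KO was a constitutive deletion, so Tet1 was lost in every cell type and throughout development. The number of animals behind each library is not given, and p-values therefore measure the spread between libraries, which may be technical. Cell identity could not be checked from these counts.

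5hmC is made when a Tet enzyme oxidises 5-methylcytosine, a mark that most CG sites of the mammalian genome carry. In brain it is known to gather over the bodies of active genes and at enhancers, and to be scarce in gene-poor, compact chromatin. In the assay, 5hmC is tagged chemically and the tagged fragments are pulled down, so the read count of a region depends on how many of its cytosines carry the mark and on its length. Levels are therefore given as CPM, the read count scaled to library size, and as CPM per kb of region width where regions are compared. Coordinates are in mm9, the build that the submitters' processing notes name. No mm9 sequence or gene annotation was used here, so neither bases nor genes are given for any region.

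Total counts ranged from 16819455 to 19288900 per library. The 25 regions of highest mean count, 0 of which were isolated, took 11.5% (KO) and 17.8% (WT) of all counts in sample 1, against 36.5% (KO) and 34.1% (WT) in sample 2. This share was thus higher in sample 2 for each genotype, and its part in the results that follow was not tested. After scaling, 3 counts, taken as the floor of detection, were worth 0.140 to 0.194 CPM.

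Isolated regions were found on all 19 autosomes, and their number ran from 51 on chromosome 19 to 244 on chromosome 1. As a share of a chromosome's regions they were least frequent on chromosome 11, at 0.661%, and most frequent on chromosome 14, at 2.17%. Chromosome 11 carried 98.0 regions per Mb and chromosome 14 carried 65.7. Across the 19 chromosomes the share of isolated regions fell with the density of regions (Spearman's rho = -0.882), 2 quantities that come from the same list. Along a chromosome, isolated regions were most common towards the centromere. When the span from the first to the last region was cut into 5 equal parts, the part nearest the centromere held 667 isolated regions, or 2.18% of its regions. The part farthest from it held 322, or 0.660%.

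**Figure D1:**
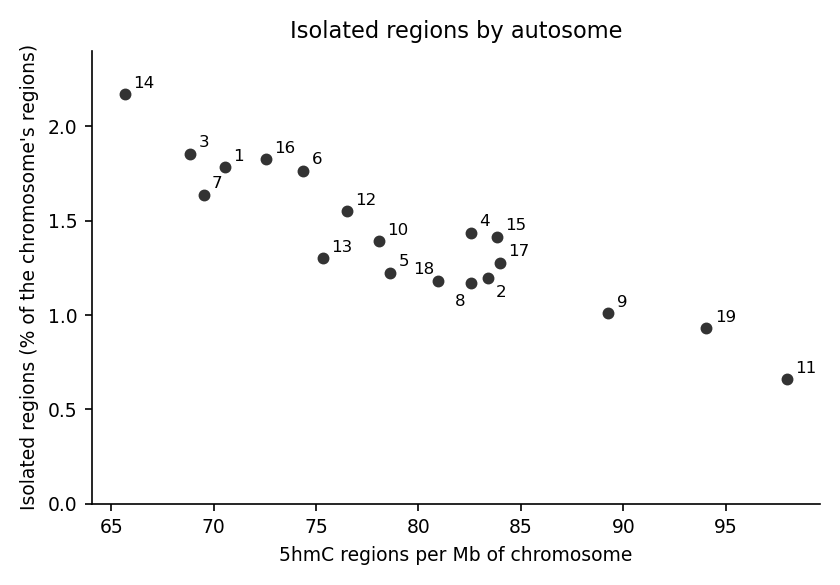
Share of each autosome's regions that were isolated (y axis, percent) against the number of 5hmC regions per Mb of that autosome (x axis), with points labelled by chromosome number. Chromosome 14 lies at 65.7 regions per Mb and 2.17%, and chromosome 11 at 98.0 regions per Mb and 0.661%.

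The smaller of a region's gaps had a median of 73581 bp among isolated regions, with quartiles of 59316 and 103136 bp, while over all autosomal regions the median was 1732 bp. In 698 isolated regions both gaps were at least 100000 bp, and in 105 both were at least 200000 bp. Many isolated regions followed each other. Of the 2665, 962 stood alone between regions that were not isolated, and 1703, or 63.9%, belonged to a series of 2 or more consecutive isolated regions. The longest series had 11 members each and covered chr2:87439972-89737138 and chr10:64061126-65309314. The series on chromosome 2 summed to 276 and 146 counts in KO samples 1 and 2 and 171 and 184 counts in WT samples 1 and 2. The series on chromosome 10 summed to 142, 18, 119 and 81 counts in the same order, lowest in KO sample 2. A series of 9 regions over chr17:19381998-20777167 held 27, 10, 12 and 24 counts, and all 9 had a mean count under 10.

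The cut at 50000 bp passed through a continuous range of gaps. The members just inside it had smaller gaps of 50012, 50019 and 50019 bp. The first of these, chr8:50525188-50525835, held 82 and 41 counts in KO and 101 and 108 in WT. The others, chr16:52569659-52570027 and chr1:157752718-157753028, held 68 and 13 in KO with 51 and 28 in WT, and 51 and 20 with 43 and 56. The regions just outside it, with smaller gaps of 49965, 49952 and 49948 bp, held 10 and 19 counts in KO with 18 and 14 in WT (chr14:34848520-34848733), 5 and 3 with 1 and 18 (chr5:15146186-15146399), and 16 and 28 with 9 and 6 (chr10:84734473-84734741). These 3 regions held fewer counts than those just inside, a description of 6 regions only.

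Isolated regions were narrow. Their median width was 271 bp (quartiles 208 and 375 bp, range 180 to 2519 bp), against 449 bp for the 174495 autosomal regions with no gap of 50000 bp and 338 bp for the 12297 with 1 such gap. Widths of 250 bp or less made up 42.2% of isolated regions and 7.81% of regions with no such gap.

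They also held few reads. The median count was 6 and 4 in KO samples 1 and 2 and 7 and 8 in WT samples 1 and 2, and the corresponding values for regions with no such gap were 57, 42, 50 and 46. Together the isolated regions took 0.457% of the counts of KO sample 1 (95% Wilson interval 0.454 to 0.461), 0.212% of KO sample 2 (0.210 to 0.214), 0.408% of WT sample 1 (0.405 to 0.412) and 0.292% of WT sample 2 (0.289 to 0.294). The totals are unscaled and include the 25 regions of highest mean count, which leave less for all other regions. Those 25 took 11.5%, 36.5%, 17.8% and 34.1% of the totals in the same order. These intervals and the floor take reads as independent, and amplified duplicate reads are not, so even the counting error may be larger. They leave out the spread between libraries. Counts of 0 were found in 18.2%, 25.3%, 15.5% and 10.8% of isolated regions in the same order of libraries, and 38 isolated regions had 0 counts in all 4. Per length, the median was 1.24 and 0.982 CPM per kb in KO samples 1 and 2 and 1.49 and 1.76 in WT samples 1 and 2. Regions with no such gap stood at 5.96, 5.98, 5.88 and 5.87 CPM per kb. The isolated median was lower in 4 of 4 libraries, from 3.34-fold in WT sample 2 to 6.09-fold in KO sample 2, and within each library it was lower on 19 of 19 chromosomes.

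Isolated regions fell into 2 groups by read count. By mean count over the 4 libraries, 371 lay from 2 to 3 and 365 from 3 to 5, but 41 lay from 7.5 to 10 and 40 from 10 to 15. Above this trough, 277 lay from 20 to 30 and 279 from 30 to 40. Split at a mean count of 10, a value chosen after the counts were seen, 1463 isolated regions (54.9%) were sparse and 1202 were not. Sparse regions made up 26.5% of regions with 1 gap of 50000 bp and 5.77% of those with none. The sparse isolated regions had a median width of 214 bp, and 73.2% of them were 250 bp wide or less. Their median was 0.379 and 0.304 CPM per kb in KO samples 1 and 2 and 0.496 and 0.716 in WT samples 1 and 2, and 405 had 3 counts or fewer in every library. The share of sparse regions rose with the size of the smaller gap, from 47.9% at 50000 to 75000 bp to 73.3% at 200000 bp or more. It was 43.5% among isolated regions that stood alone and 70.6% among the 401 in series of 5 or more.

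**Figure D2:**
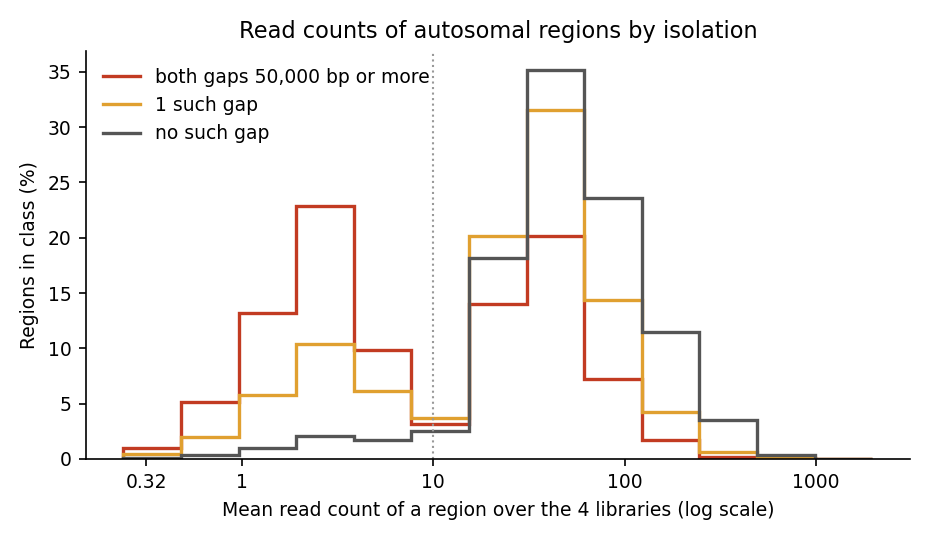
Percent of regions in each class (y axis) by mean read count over the 4 libraries (x axis, log scale, bins that double in width). Red, both gaps at least 50000 bp; orange, 1 such gap; grey, none. The dotted line marks a mean count of 10. Regions with 0 counts in all libraries (38 of the isolated) are not drawn. The isolated class has a low peak, with 54.9% of its regions under 10, where the orange class has 26.5% and the grey class 5.77%. The orange class has a smaller peak at the same place.

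Levels per length were also compared among regions of ample count, a limit that itself bears on the level because narrower regions need more CPM per kb to reach it. Among the 1080 whose mean count reached 20, the median was 6.44 CPM per kb in KO sample 1 and 6.33 in WT sample 1, and the 155603 such regions with no gap of 50000 bp stood at 6.29 and 6.23. In the sample 2 libraries the isolated median was lower, 4.10 against 6.45 CPM per kb in KO and 5.15 against 6.23 in WT. KO sample 2 was thus farthest below the other regions, and WT sample 2 lay between it and sample 1. These 1080 regions had a median width of 391 bp, against 486 bp.

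**Figure D3:**
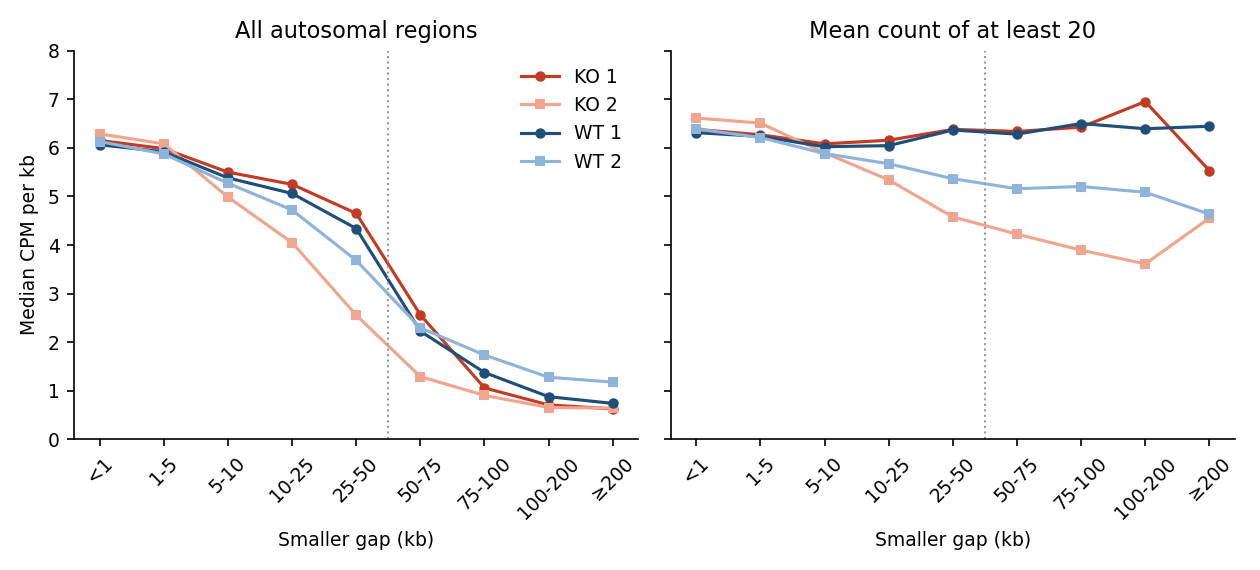
Median CPM per kb in each library (y axis) by the smaller gap of a region (x axis, kb), for all autosomal regions (left) and those whose mean count reached 20 (right). Regions to the right of the dotted line have both gaps of at least 50 kb, that is, they are isolated. On the left all 4 libraries fall with the gap. On the right the sample 1 libraries stay near 6 CPM per kb up to 200 kb while KO sample 2 falls to 3.61. The last point of the right panel rests on 20 regions.

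The widest isolated regions were well covered. The widest, chr6:148075025-148077543 (2519 bp), had 773 and 515 counts in KO and 538 and 562 in WT, which made 34.8 ± 1.95 CPM for KO against 30.6 ± 2.78 CPM for WT (SD, n = 2 per genotype). It lay 161381 bp from the region before it and 70275 bp from the region after it. The second, chr13:64932628-64934705 (2078 bp, gaps of 118160 and 423976 bp), averaged 17.1 ± 3.19 CPM for KO against 19.0 ± 0.0391 CPM for WT (SD, n = 2 per genotype). The other 3 of the 5 widest, chr13:73764767-73766523, chr16:7766776-7768216 and chr10:28739138-28740521, had KO means from 7.04 to 10.6 CPM and WT means from 7.30 to 14.2 CPM. In the widest region both KO libraries (36.1 and 33.4 CPM) lay above both WT libraries (28.7 and 32.6 CPM). In the region on chromosome 10 both KO libraries (12.2 and 9.08 CPM) lay below both WT libraries (14.2 and 14.3 CPM). In the other 3 the genotypes overlapped.

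Per length, the strongest isolated region was chr13:13952968-13953416, with 9.58 and 34.9 CPM per kb in KO samples 1 and 2 and 21.7 and 46.0 in WT samples 1 and 2. Here sample 2 exceeded sample 1 in each genotype, and the genotypes overlapped. It was followed by chr10:26715676-26716351, with 13.5 and 15.8 CPM per kb in KO and 25.4 and 20.2 in WT, and chr1:17479530-17480067, with 12.6 and 14.5 in KO and 19.5 and 17.2 in WT. In both of these regions each KO library lay below each WT library. The other 2 of the 5 strongest, chr3:155680440-155680953 and chr13:20920564-20921754, ranged from 6.81 to 18.8 and from 10.7 to 18.5 CPM per kb, and their genotypes overlapped. The fitted log2 fold changes of the 5 widest and 5 strongest regions ran from -0.64 to 0.18, and edgeR gave each an adjusted p of 1.

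The 5 most remote regions were nearly empty, although 20 of the 105 with a smaller gap of at least 200000 bp reached a mean count of 20. The region with the largest smaller gap, chr7:9417984-9418194, lay 849493 and 1288698 bp from its neighbours and held 1, 2, 1 and 4 counts in KO samples 1 and 2 and WT samples 1 and 2. The next 4, chr2:175810738-175810963, chr1:150708768-150708947, chr6:130228629-130228912 and chr7:50050226-50050426, held from 0 to 7 counts in any library. At this depth no difference between genotypes could be measured in these 5 regions, and none passed the low-count filter.

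To ask whether loss of Tet1 changed 5hmC in isolated regions, KO was first set against WT within each sample number. Over all 2665 isolated regions, with a pseudocount worth 1 count, the median log2 ratio of KO to WT was 0.00 in sample 1 (quartiles -0.76 and 0.60) and -0.51 in sample 2 (quartiles -1.55 and 0.11). For regions with no gap of 50000 bp the medians were 0.00 in sample 1 and -0.01 in sample 2. In sample 2 the isolated median lay below that of the other regions on 19 of 19 chromosomes, and in sample 1 on 8 of 19. With libraries paired by number, a lower scaled level in KO was thus seen in 1 sample number and not in the other. The labels do not say that libraries of one number belong together, and ratios across sample numbers are not given here. With 1 library for each genotype in a sample number the ratios could not be tested. Levels were scaled between libraries, so a loss shared by all regions could show neither in these ratios nor in the tests below. The paper reports a lower global level of the mark in KO astrocytes by dot blot, which scaled counts cannot address.

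Sparse and other isolated regions are given apart, beside the ratios between libraries of one genotype. In the 1463 sparse regions the median log2 ratio of KO to WT was -0.09 in sample 1 and -0.69 in sample 2. That of WT sample 2 to WT sample 1 was 0.42, and that of KO sample 2 to KO sample 1 was 0.00. Sparse regions with no gap of 50000 bp, of which there were 10071, had medians of -0.14, -0.64, 0.33 and 0.00 for the same ratios. Sparse regions thus had much the same ratios whether or not they were isolated. In the 1080 isolated regions whose mean count reached 20, the log2 ratio of KO to WT was 0.03 in sample 1 and -0.36 in sample 2. The log2 ratio of sample 2 to sample 1 was -0.75 within KO and -0.25 within WT. In the 155603 regions with no such gap whose mean count reached 20, these 4 medians were 0.00, 0.02, 0.04 and 0.01. Their counts were higher, with a median of 47 in KO sample 2 against 25 in isolated regions. At mean counts of 20 to 60, KO sample 2 over WT sample 2 was -0.08 in regions with no such gap and -0.36 in isolated regions. KO sample 2 over KO sample 1 was -0.11 and -0.78 in the same order. In the 1080 isolated regions, the genotype ratio of sample 2 thus fell beside a drop in sample 2 that both genotypes shared and that was larger in KO. The sparse regions showed no such drop. The limit on the mean count was set on the same 4 libraries and can itself bear on these ratios. Over all 2665 isolated regions the median log2 ratio of sample 2 to sample 1 was -0.31 within KO and 0.00 within WT. In all regions with no gap of 50000 bp it was 0.02 within each genotype. A drop shared by both genotypes was thus seen only under the limit.

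Among regions of ample count, the fall in sample 2 was graded up to gaps of 75000 bp. In regions whose mean count reached 20, the median log2 ratio of KO sample 2 to WT sample 2 was 0.04 where the smaller gap was under 1000 bp, -0.13 at 10000 to 25000 bp, -0.29 at 25000 to 50000 bp and -0.40 at 50000 to 75000 bp. At larger gaps it eased, to -0.33 at 75000 to 100000 bp, -0.29 at 100000 to 200000 bp and -0.10 in the 20 regions at 200000 bp or more. Without the limit on mean count it did not ease up to 200000 bp. It was then -0.51, -0.52 and -0.64 in these 3 ranges from 50000 bp, and -0.31 at 200000 bp or more. In sample 1 the ratio was 0.02 at 50000 to 75000 bp, -0.04 at 75000 to 100000 bp and 0.16 at 100000 to 200000 bp. Within KO, the log2 ratio of sample 2 to sample 1 fell from 0.06 to -0.93 between gaps under 1000 bp and gaps of 100000 to 200000 bp, and within WT from 0.02 to -0.32. In the last 20 regions these ratios were -0.10 and -0.21. Without the limit on mean count, the ratio within KO went from 0.05 to -0.08 between gaps under 1000 bp and gaps of 100000 to 200000 bp. Within WT it went from 0.03 to 0.10, so the fall within WT was seen only under the limit. Width was also held to 300 to 600 bp and mean count to 20 to 60, a comparison chosen after the data were seen. The median log2 ratio of KO sample 2 to WT sample 2 was then -0.32 in 547 isolated regions. It was -0.30 in 3931 regions with 1 gap of 50000 bp and -0.05 in 58245 regions with none. The lower ratio was thus not particular to isolated regions. The parts of width and count in the lower ratio were not otherwise tested. KO sample 2 was the lowest of the 4 libraries in 583 of the 1080 isolated regions (54.0%), against 32.7% of regions with no such gap.

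**Figure D4:**
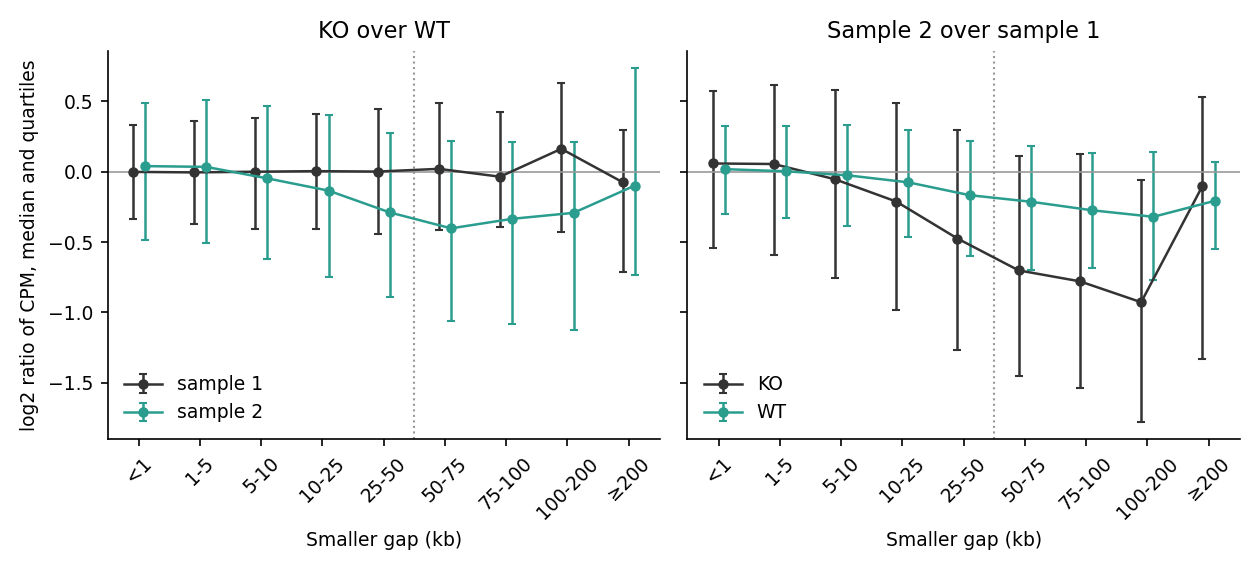
Median log2 ratio of CPM (points; bars span the quartiles over regions) by the smaller gap (x axis, kb), for autosomal regions whose mean count reached 20. Left, KO over WT in each sample number; right, sample 2 over sample 1 in each genotype. Isolated regions lie right of the dotted line. The sample 1 ratio stays near 0 up to 100 kb, while the sample 2 ratio and both ratios in the right panel fall below 0. The last point rests on 20 regions.

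The order of the libraries was then compared over all isolated regions, without a filter. Both KO libraries lay below both WT libraries in 572 isolated regions (21.5%), beside 16.4% of all autosomal regions. Both lay above in 201 (7.54%), beside 14.7%. In isolated regions whose mean count reached 20 the shares were 17.1% below and 8.24% above, beside 15.1% and 15.6% of all autosomal regions of such counts. Among sparse isolated regions they were 24.9% below and 7.04% above, and among sparse regions with no gap of 50000 bp 26.9% and 6.96%. The lower share above was thus seen in isolated regions of ample count and in sparse regions, isolated or not, and these differences in share were not tested. The parts of sparse regions and of the low KO sample 2 in these shares were not tested.

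KO and WT were also compared region by region, by the quasi-likelihood test in edgeR, over 176957 regions that passed a low-count filter. Of the isolated regions, 1230 passed the filter and 1435 did not. At adjusted p under 0.05, 0 of the 1230 were called, as were 0% of all regions tested. At unadjusted p under 0.05, 30 isolated regions (2.44%) were lower in KO, beside 1.27% of all regions tested, and 14 (1.14%) were higher, beside 1.54%. The lowest unadjusted p was 0.000459. The median log2 fold change was -0.07 (quartiles -0.48 and 0.31) over the isolated regions tested and 0.02 over all regions tested. The median standard error of the log2 fold change was 0.62 over the isolated regions tested and 0.51 over all regions tested. The direction of the median rested on single libraries. It was -0.64 without KO sample 1 and -0.15 without WT sample 2, but 0.13 without KO sample 2 and 0.08 without WT sample 1.

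The isolated regions of lowest unadjusted p were followed in each direction, and none passed the adjusted threshold. They were picked by the same comparison of these libraries. Separate genotypes and close replicates in them therefore follow largely from the choice and add no support. Highest in rank among those higher in KO was chr7:23561000-23561214, a region of 215 bp with gaps of 319421 and 669192 bp. It held 73 and 67 counts in KO and 10 and 14 in WT, which made 3.88 ± 0.658 CPM for KO against 0.672 ± 0.197 CPM for WT (SD, n = 2 per genotype). The fitted log2 difference was 2.52 ± 0.57 (SE; edgeR adjusted p of 1). The genotypes did not overlap in this region.

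The region chr3:96136791-96137299 held 62 and 75 counts in KO and 13 and 15 in WT, with a fitted log2 difference of 2.30 ± 0.57 (SE). In chr4:88439272-88439660 KO had 64 and 106 counts and WT had 13 and 23, and the log2 difference was 2.27 ± 0.56. The KO libraries differed from each other here, at 2.99 and 6.87 CPM, and both were above the WT libraries at 0.693 and 1.33 CPM. The region chr13:4310488-4311100 held 76 and 50 counts in KO and 10 and 20 in WT, and chr4:27338813-27339299 held 88 and 56 in KO and 12 and 32 in WT. Their log2 fold changes were 2.00 ± 0.59 and 1.64 ± 0.56 (SE).

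Among regions lower in KO, chr1:118666865-118667254 ranked first. It was remote, with gaps of 251016 and 273287 bp, and held 29 and 6 counts in KO and 102 and 80 in WT, which made 0.872 ± 0.684 CPM for KO against 5.04 ± 0.562 CPM for WT (SD, n = 2 per genotype). The fitted log2 difference was -2.47 ± 0.56 (SE; edgeR adjusted p of 1). With sample number as a replicate block it was the only isolated region called, with a log2 fold change of -2.62 (edgeR adjusted p of 0.00622).

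The region chr14:88990707-88990887 had 0 counts in both KO libraries and 12 and 15 counts in WT, and was at least 4.51-fold lower in KO when KO was set at 3 counts per library. It was 181 bp wide, and the narrowest isolated regions had 180 bp. The region chr18:22051619-22051995 held 40 and 28 counts in KO and 101 and 96 in WT, which made 1.84 ± 0.0388 CPM for KO against 5.47 ± 0.132 CPM for WT (SD, n = 2 per genotype). The replicates of each genotype lay close together in this region, whose log2 fold change was -1.57 ± 0.43 (SE). The region chr18:37546879-37547571 held 8 and 5 counts in KO and 36 and 46 in WT, and chr10:30375282-30376095 held 53 and 32 in KO and 111 and 94 in WT. Their log2 fold changes were -2.68 ± 0.78 and -1.31 ± 0.41 (SE).

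**Figure D5:**
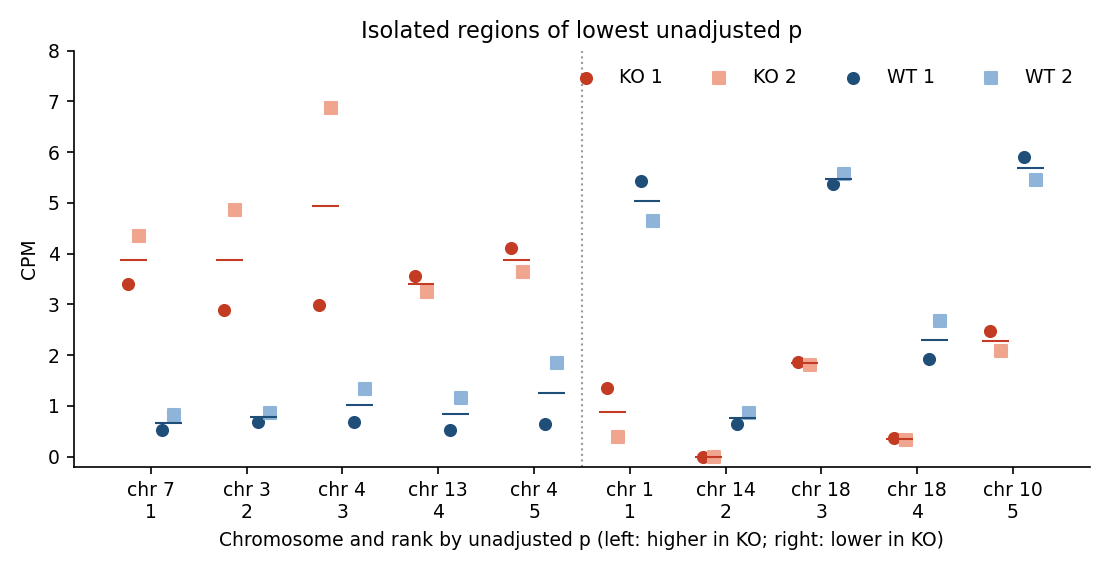
CPM (y axis) in each library for the 5 isolated regions of lowest unadjusted p among those higher in KO (left) and lower in KO (right), labelled by chromosome and rank. Circles are sample 1, squares sample 2, and horizontal lines are means of 2 libraries. In all 10 regions the KO and WT libraries do not overlap, which follows largely from their choice by p in these same libraries. To each of them edgeR gave an adjusted p of 1.

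Libraries were last compared region by region. Spearman's rho of CPM per kb across the 2665 isolated regions was from 0.683 (KO samples 1 and 2) to 0.787 (KO sample 1 and WT sample 1). Within the 1202 isolated regions that were not sparse it was -0.02 for the KO libraries and 0.498 for the WT libraries. Between genotypes it was 0.311 for the sample 1 libraries and 0.445 for the sample 2 libraries. Across sample numbers it was 0.185 (KO sample 1 and WT sample 2) and 0.213 (KO sample 2 and WT sample 1). The values over all isolated regions thus stood beside the split into sparse and other regions. With the mean count held to 20 to 60, rho between the KO libraries was -0.23 in 824 isolated regions and -0.14 in 86114 regions with no gap of 50000 bp, so a value below 0 was not particular to isolated regions. These regions share libraries, and a limit set on the mean count lowers such correlations.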

How the data were processed

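5hmC-enriched DNA of 2 KO and 2 WT libraries was sequenced. The authors deposited raw read counts for 1 shared list of regions. The submitters' processing notes name Bowtie2 2.2.6 and mm9. How regions were called, how reads were counted and how duplicate or multiply placed reads were treated is not given in the sources used here, and each could change the counts and the gaps. The 2 input libraries were not analysed here.

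Samples were grouped by genotype from their titles. Width was end minus start plus 1, and a gap was the start of a region minus the end of the region before it. Regions were filtered with filterByExpr (minimum count 10, minimum total count 15), scaled with TMM factors (trimmed mean of M-values) and tested in edgeR 4.0.16 (R 4.3.3) by quasi-likelihood, with Benjamini-Hochberg adjustment over all tested regions. The standard error was taken as the log2 fold change divided by the square root of F. The test was checked on simulated counts. With 2 libraries against 2, exact permutation cannot reach a two-sided p under 0.333, so single values were not tested that way. Log2 ratios within a sample number used a pseudocount worth 1 count.

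Regions named are the 5 widest, the 5 highest in mean CPM per kb, the 5 with the largest smaller gap, the 5 of lowest unadjusted p in each direction, and 3 on either side of the 50000 bp limit. The members and rules were chosen with earlier results of these data known. Alternatives were DESeq2 1.42.0, total-count scaling, other count filters, a replicate block, autosomes only, leaving out each library, gap limits of 25000 and 100000 bp, gaps measured only between regions whose mean count reached 20, a pseudocount worth 5 counts, and a fixed width range of 300 to 600 bp. Figures were drawn with matplotlib 3.10.9.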

Additional observations from a re-analysis of the deposited data

How the results depend on the processing

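Over all regions, the count at adjusted p under 0.05 was 0 with edgeR, with 2731 higher and 2245 lower in KO at unadjusted p under 0.05. It was 6 with DESeq2, 2 without the low-count filter and 79 with the replicate block, and from 7 to 13438 when 1 library was left out. Among isolated regions it was 0 with DESeq2 and without the filter, 1 with the replicate block, and from 0 to 158 when 1 library was left out. It was 158 without KO sample 1 (20 higher and 138 lower in KO) and 19 without KO sample 2 (13 higher and 6 lower), where the lone library was assumed to vary like the other genotype's pair, and 0 without either WT library. The cause was not tested.

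Of 1230 isolated regions tested, 44 had an unadjusted p under 0.05, 31.8% of them higher in KO. They became 23 of 1230 with total-count scaling and 82 of 1230 with the replicate block (19.5% higher). Without the filter, where more regions were tested, they became 83 of 2627 (19.3% higher). When 1 library was left out they numbered from 20 to 394, with 59 higher and 335 lower without KO sample 1 but 133 higher and 82 lower without KO sample 2. They were 154 with a minimum gap of 25000 bp, 10 with 100000 bp and 79 with gaps between regions of mean count 20 or more. The median log2 fold change ran from -0.64 to 0.13 when 1 library was left out. Deviations from the genotype means were shared between libraries of one sample number (correlation 0.163 over 176957 regions), but nothing in the labels says that a number marks a shared animal or day.

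The rule gave 7475 isolated regions with a minimum gap of 25000 bp and 698 with 100000 bp. Measured between regions whose mean count reached 20, it gave 2271, of which 1077 were isolated in the full list as well. The median CPM per kb of isolated regions relative to regions without a gap, averaged over libraries, was 0.231 ± 0.0584 (SD, n = 4). It was 0.510 at 25000 bp, 0.147 at 100000 bp, 0.746 at a width of 300 to 600 bp, 0.876 where the mean count reached 20, and 0.877 with gaps between such regions. A limit on the mean count bears on CPM per kb itself. By library, KO sample 2 was lowest, at 0.636 where the mean count reached 20 and 0.476 at a width of 300 to 600 bp. Over the alternatives run for it, the median log2 ratio of KO to WT ran from -0.02 to 0.08 in sample 1 and from -0.64 to -0.32 in sample 2.

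Of 139 alternative log2 fold changes for the 20 named regions with a fit, 9 changed sign. With DESeq2 all 20 kept their direction and side of the threshold, and with total-count scaling 19 did. With the replicate block 19 did and 1 passed the threshold. Passes in fits that left a lone library in a genotype are not counted here. The region chr16:7766776-7768216 went from -0.04 to 0.060 with total-count scaling. When 1 library was left out it ran from -0.52 to 0.32, chr13:64932628-64934705 from -0.35 to 0.027, chr13:73764767-73766523 from -0.40 to 0.19, chr13:13952968-13953416 from -1.82 to 0.056, chr13:20920564-20921754 from -0.52 to 0.12 and chr3:155680440-155680953 from -1.22 to 0.15.

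A gap between listed regions says that no region was listed there. The input was not analysed here, so an absence of 5hmC from such gaps was not measured.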
